A study of Mus musculus with 18 samples.

Results

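The keratin genes of the mouse mammary gland were followed through 4 sorted cell subpopulations. Every gene whose probe symbol is Krt followed by a number and at most 1 letter was taken, without the keratin-associated protein genes, which gave 49 of the 19057 genes on the array: 26 type I genes, read by 30 probes, and 23 type II genes, read by 36 probes. RNA was measured on 18 Illumina arrays of cells sorted from female FVB/N mice, an inbred strain with no transgene or treatment here, and the age of the mice hybridized is not given in the sources used here. The subpopulations were the MaSC-enriched cells (CD29hi CD24+ CD61+, the basal fraction that holds the mammary stem cells), luminal progenitors (CD29lo CD24+ CD61+), mature luminal cells (CD29lo CD24+ CD61-) and stromal cells (CD29lo CD24-). Each of 5 pools of 3 to 5 mice gave 1 array of each epithelial subpopulation, and pools 1, 2 and 3 also gave 1 stromal array, so that a replicate is a pool and not 1 animal. Each array averages a whole sorted fraction, in which fewer cells of a type and less RNA per cell cannot be told apart.

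Keratins are the intermediate filament proteins of epithelial cells. A filament forms only when an acidic type I keratin pairs with a basic type II keratin, and the pairs change with the kind of epithelium: Krt8 and Krt18, with Krt7 and Krt19, in simple and luminal epithelium, Krt5 with Krt14 or Krt15 in basal cells, Krt6 with Krt16 or Krt17 in activated or appendage epithelium, Krt1 with Krt10 in the upper epidermis, and a large set in the hair shaft and its root sheaths. In the mammary gland, basal and myoepithelial cells are known by Krt5 and Krt14 and luminal cells by Krt8 and Krt18, and keratin filaments anchor at desmosomes and hemidesmosomes. In the RefSeq gene table for the mouse, 25 of the 26 type I genes lay on chromosome 11, whereas the type II genes and the type I gene Krt18 lay on chromosome 15, where Krt18 stands next to its partner Krt8.

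The sequence just before the start of transcription is shown for 8 keratins that stand for the patterns described below, so that the start-site signals of co-measured genes can be compared. Promoters of RefSeq (build GRCm38.p6) were matched by gene identifier for 34 of the 49 keratins, over 250 bases before and 50 bases after the start. These include 14 of the 20 keratins described by array below, and Krt15, Krt16, Krt17 and Krt19 are among those without a match. Each line is a stretch of 120 bases ending just before the start, read 5′ to 3′ on the gene's own strand. Capitals mark TATAAA, or ATAAA where it starts 20 to 35 bases before the start on the gene's strand, the AP-2 type motif GCCNNNGGC (its own reverse complement) and the GC box GGGCGG on either strand. The first 3 genes were highest in MaSC-enriched cells, the next 2 in luminal cells, and the last 3 are inner root sheath keratins.
Krt5 promoter, chr15:101712906-101713025, minus strand: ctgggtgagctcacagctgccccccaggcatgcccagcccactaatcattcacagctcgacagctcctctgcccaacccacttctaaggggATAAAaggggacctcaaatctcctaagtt
Krt90 promoter, chr15:101562951-101563070, minus strand: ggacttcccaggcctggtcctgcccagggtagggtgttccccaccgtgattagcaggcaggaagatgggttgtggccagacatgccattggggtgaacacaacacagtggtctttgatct
Krt23 promoter, chr11:99493121-99493240, minus strand: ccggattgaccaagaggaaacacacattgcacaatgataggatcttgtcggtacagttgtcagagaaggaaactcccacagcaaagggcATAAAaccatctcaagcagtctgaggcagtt
Krt7 promoter, chr15:101412283-101412402, plus strand: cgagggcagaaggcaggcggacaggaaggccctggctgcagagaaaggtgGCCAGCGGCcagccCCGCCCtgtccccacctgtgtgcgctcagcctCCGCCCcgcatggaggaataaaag
Krt18 promoter, chr15:102028096-102028215, plus strand: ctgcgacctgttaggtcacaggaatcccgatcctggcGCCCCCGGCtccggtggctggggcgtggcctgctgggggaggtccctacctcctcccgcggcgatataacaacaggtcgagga
Krt28 promoter, chr11:99374904-99375023, minus strand: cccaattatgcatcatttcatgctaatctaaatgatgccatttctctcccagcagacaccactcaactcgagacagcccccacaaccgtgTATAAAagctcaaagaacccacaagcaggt
Krt71 promoter, chr15:101743098-101743217, minus strand: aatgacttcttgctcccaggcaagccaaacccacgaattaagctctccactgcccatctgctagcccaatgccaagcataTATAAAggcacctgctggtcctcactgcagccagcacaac
Krt73 promoter, chr15:101802361-101802480, minus strand: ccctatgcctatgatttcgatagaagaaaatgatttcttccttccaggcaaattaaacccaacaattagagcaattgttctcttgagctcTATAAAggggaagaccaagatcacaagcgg

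Searched on both strands, TATAAA lay in 18 of the 34 keratin promoters (52.9%), against 14.2% of 27025 RefSeq promoters of the same length. For ATAAA at the start-proximal position, which often overlaps a TATAAA, the shares were 52.9% and 4.05%. The TATAAA stood in 12 of 15 promoters of root sheath and hair keratins (80.0%) and in 6 of the 19 others (31.6%). The stretches of Krt28, Krt71 and Krt73 each carry it, those of Krt5 and Krt23 hold only the shorter ATAAA, and the stretch of Krt90 holds none of the 4 motifs. Krt7 and Krt18, high in luminal cells, carry GCCNNNGGC in the stretch shown, a motif found in 7 of the 34 (20.6%) and in 16.5% of all promoters. Krt42 and Krt90, high in MaSC-enriched cells, carry it too, Krt90 at 130 bases before the start and so outside its stretch. The promoter of Krt8, also high in luminal cells, does not hold it. The GC box was rare, in 2 of 34 keratin promoters (5.88%, Krt7 and Krt75) against 35.9% of all promoters. These matches are descriptions of letters and show no binding.

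The values are log2 intensities as deposited, with all arrays on 1 scale that ends at 15.09. Levels of different genes come from different probes and are not ranked against each other. An array's background was set from probes of olfactory and vomeronasal receptors and lay between 5.10 and 5.44, and 46.3% to 55.9% of the probes lay above it. Of the receptor probes themselves 8.1% to 12.8% lay above it on each array, so signal just above background is weak evidence of expression. A gene was called different where the adjusted p-value of limma was below 0.05 and the fold-change above 1.5. The non-keratin markers mostly followed the sort labels. All 7 basal markers (Trp63, Acta2 and others) were higher in MaSC-enriched cells than in either luminal subset. All 5 luminal progenitor markers (Kit, Elf5 and others) were higher in luminal progenitors than in mature luminal cells, and 3 of the 4 tested mature luminal markers went the other way. All 6 fibroblast markers were higher in stromal than in MaSC-enriched cells. Of the 5 luminal progenitor markers, though, 1 was higher and 3 lower in stroma than in luminal progenitors, and 2 were higher and 3 lower than in mature luminal cells. Of the 7 basal markers 2 were higher in stroma than in mature luminal cells and 0 lower. Among the epithelial subsets 5 of the 6 fibroblast markers were higher in MaSC-enriched cells, and 5 in luminal progenitors, than in mature luminal cells, with median differences of 2.04 and 1.69. Of the 5 endothelial markers 4 were higher in MaSC-enriched than in mature luminal cells, and of 3 tested blood cell and 3 tested adipocyte markers 1 each, with Ptprc, the pan-leukocyte marker, at or near background. Of all genes tested, 11.3% were higher in MaSC-enriched cells than in luminal progenitors, and 13.7% than in mature luminal cells. Between luminal progenitors and mature luminal cells 6.42% were higher and 4.67% lower in the first. In stroma 14.3% were higher than in MaSC-enriched cells. Against luminal progenitors 16.5% were higher and 19.8% lower in stroma, and against mature luminal cells 16.6% and 21.7%.

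Some arrays stood apart within their group. MaSC-enriched replicates 3 and 4 had luminal progenitor markers at a mean log2 level of 10.46 and 9.97, against 7.54 to 8.16 in the other 3, endothelial markers at 11.06 and 10.52, against 7.52 to 8.59, and fibroblast markers at 11.37 and 11.41, against 9.42 to 9.81. Luminal progenitor replicates 3 and 4 had basal markers at 9.16 and 8.73, against 6.23 to 7.71, endothelial markers at 9.40 and 9.94, against 6.46 to 7.41, and adipocyte markers at 6.38 and 7.32, against 4.91 to 5.02. Mature luminal replicate 4 had basal markers at 8.48, against 7.66 to 7.79 in the other 4, luminal progenitor markers at 11.19, against 9.45 to 10.06, and the lowest mature luminal markers of its group, at 10.10 against 10.52 to 11.46. Replicates 4 and 5 form the second hybridization batch, which has no stromal array.

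Of the 49 keratins, 43 (23 type I, 20 type II) lay above background on at least 1 array and were tested. The other 6, Krt9, Krt39, Krt40, Krt77, Krt87 and Krt88, were not above background on any array, with values from 4.50 to 5.29. Signal above background on all 18 arrays was measured for 10 keratins, 8 of them type I: Krt7, Krt8, Krt10, Krt14, Krt15, Krt17, Krt18, Krt19, Krt23 and Krt42. Over the 6 comparisons 21 of the 43 keratins were called at least once, where 52.6% of all genes tested were, and 20 of these were also above background on every array of at least 1 subpopulation and are described below. The remaining 22 tested keratins were called in no comparison. Of the 23 tested keratins outside the described set 11 were above background on fewer than 5 arrays. Krt78, Krt82, Krt222 and Krt80, by contrast, were above it on 17, 15, 14 and 13 arrays at levels of at most 7.66. For Krt78 the probes disagreed: the brightest differed by -0.38 between MaSC-enriched and mature luminal cells and was not called, while the other 2 differed by -1.0 and -0.92 and were.

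**Figure D1:**
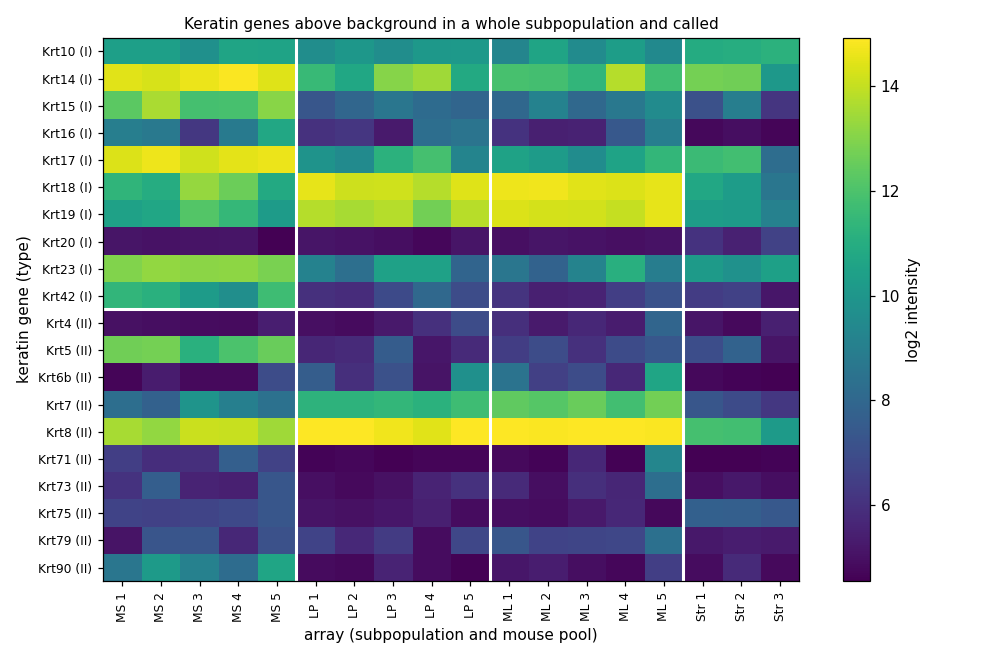
Log2 intensity (colour scale) of the 20 described keratins (rows, type I above the line and type II below) on each of the 18 arrays (columns, MS for MaSC-enriched, LP for luminal progenitor, ML for mature luminal and Str for stromal, numbered by mouse pool). Krt5, Krt14, Krt15, Krt17, Krt23, Krt42 and Krt90 are brightest across the 5 MaSC-enriched arrays, and Krt7, Krt8, Krt18 and Krt19 across the 10 luminal arrays.

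The comparison of MaSC-enriched cells with luminal cells asked which keratins set the basal layer apart. In all, 11 keratins were higher and 5 lower in MaSC-enriched cells than in luminal progenitors, where 11.3% and 10.9% of the 16319 genes tested were higher and lower (22.2% together). Against mature luminal cells 9 were higher and 7 lower, with 13.7% and 13.8% of all genes (27.5% together). Of the 23 tested type I genes 6 were higher and 2 lower in either comparison, and of the 20 type II genes 5 were higher and 3 lower against luminal progenitors and 3 higher and 5 lower against mature luminal cells. Log2 differences below are MaSC-enriched minus luminal, first against luminal progenitors and then against mature luminal cells, and come from the weighted fit, so they can depart a little from differences of plain means. The median log2 difference over the 43 tested keratins was 0.03 and -0.06, against -0.02 and -0.04 over all genes.

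All 3 basal keratins were higher in MaSC-enriched cells. Krt5, the type II keratin of basal cells, measured 12.69, 12.76, 11.15, 11.98 and 12.57 on the MaSC-enriched arrays of pools 1 to 5, 5.67, 5.76, 7.56, 5.16 and 5.77 on the luminal progenitor arrays and 6.41, 6.97, 6.0, 6.90 and 7.36 on the mature luminal arrays, in the same order of pools. The lowest MaSC-enriched array lay above every luminal array, and luminal progenitor replicate 4 was not above background. The differences were 6.12 (SE 0.53, 69.6-fold higher, adjusted p = 3.15e-08) and 5.69 (SE 0.50, 51.5-fold higher, adjusted p = 4.15e-08).

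Krt14, the usual type I partner of Krt5, measured 14.46, 14.32, 14.63, 14.87 and 14.44 in MaSC-enriched cells, 11.53, 10.72, 13.03, 13.43 and 10.86 in luminal progenitors and 11.89, 11.84, 11.37, 13.76 and 11.75 in mature luminal cells. The groups did not overlap, but the luminal arrays spread from 10.72 to 13.76, with luminal progenitor replicates 3 and 4 and mature luminal replicate 4 the highest. The differences, 2.75 (SE 0.56, 6.72-fold higher, adjusted p = 0.000778) and 2.60 (SE 0.53, 6.04-fold higher, adjusted p = 0.000807), were smaller than those of Krt5 as measured, on MaSC-enriched arrays close to the end of the scale. Krt15, the other basal type I keratin, measured 12.30, 13.63, 11.85, 11.90 and 13.10 in MaSC-enriched cells, 7.32, 7.98, 8.61, 8.19 and 7.94 in luminal progenitors and 8.03, 9.15, 8.04, 8.72 and 9.55 in mature luminal cells. These groups did not overlap either, and the differences were 4.69 (SE 0.50, 25.8-fold higher, adjusted p = 4.22e-07) and 4.05 (SE 0.47, 16.5-fold higher, adjusted p = 1.43e-06).

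The keratins of activated and appendage epithelium divided. Krt17, found in basal cells of appendages and after wounding, measured 14.37, 14.68, 14.16, 14.50 and 14.62 in MaSC-enriched cells, 9.89, 9.53, 11.20, 11.85 and 9.24 in luminal progenitors and 10.51, 10.25, 9.61, 10.55 and 11.41 in mature luminal cells. No luminal array reached a MaSC-enriched one, and the differences as measured, with MaSC-enriched arrays again close to the end of the scale, were 4.31 (SE 0.62, 19.9-fold higher, adjusted p = 1.98e-05) and 4.13 (SE 0.59, 17.6-fold higher, adjusted p = 1.73e-05). Krt16, its neighbour on chromosome 11, was also higher in MaSC-enriched cells, with 8.98, 8.76, 6.24, 8.79 and 10.75 in MaSC-enriched cells, 6.02, 6.17, 5.29, 8.30 and 8.53 in luminal progenitors and 6.06, 5.46, 5.54, 7.41 and 8.97 in mature luminal cells. The groups overlapped, with the luminal arrays of pools 4 and 5 above those of the other pools, but in 5 of 5 pools the MaSC-enriched array exceeded both luminal arrays. The differences were 2.31 (SE 0.55, 4.97-fold higher, adjusted p = 0.00287) and 2.35 (SE 0.52, 5.11-fold higher, adjusted p = 0.00158).

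Krt6b, a type II partner of Krt16 and Krt17, went the other way. It measured 4.70, 5.32, 4.79, 4.80 and 6.94 in MaSC-enriched cells, 7.61, 5.96, 7.11, 5.10 and 9.74 in luminal progenitors and 8.48, 6.52, 6.94, 5.69 and 10.66 in mature luminal cells. The groups overlapped, with luminal levels from background in luminal progenitor replicate 4 to the highest values in pool 5, but in 5 of 5 pools the MaSC-enriched array was below both luminal arrays. As only 2 of the 5 MaSC-enriched arrays were above background no fold is given, and the differences were -2.03 (SE 0.58, adjusted p = 0.0116) and -2.33 (SE 0.55, adjusted p = 0.00282). The first was not called without the pool in the model. Krt6a, a close copy of Krt6b, was not above background on any MaSC-enriched array and was at least 2.11-fold lower there than in mature luminal cells (adjusted p = 0.0131). Both of its probes were lower against mature luminal cells, whereas the second Krt6b probe, near background, differed by only -0.12 and -0.22 and was not called. Krt4, a type II keratin of wet stratified epithelia, was also lower than in mature luminal cells, by -0.88 (SE 0.32, adjusted p = 0.0435), with 1 of 5 MaSC-enriched arrays above background, mature luminal replicate 5 at 7.92 and the other 4 at 5.28 to 5.95. This call was lost for 11 of the 18 arrays left out singly, with adjusted p up to 0.0909.

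The MaSC-enriched set also held Krt23, Krt42 and Krt90. Krt23, a type I keratin, measured 12.96, 13.26, 13.12, 13.16 and 12.86 in MaSC-enriched cells, 9.15, 8.33, 10.50, 10.47 and 7.88 in luminal progenitors and 8.61, 7.80, 9.18, 11.11 and 8.94 in mature luminal cells. The groups did not overlap, and mature luminal replicate 4 and luminal progenitor replicates 3 and 4 were the luminal arrays nearest to it. The differences were 3.87 (SE 0.43, 14.6-fold higher, adjusted p = 7.29e-07) and 4.29 (SE 0.40, 19.5-fold higher, adjusted p = 9.38e-08). Krt42, which lies beside Krt17, measured 11.37, 11.15, 10.26, 9.68 and 11.69 in MaSC-enriched cells, 5.98, 5.85, 6.88, 8.06 and 6.96 in luminal progenitors and 6.10, 5.44, 5.59, 6.47 and 7.15 in mature luminal cells. The MaSC-enriched arrays lay above all luminal arrays, and the differences were 4.53 (SE 0.39, 23.2-fold higher, adjusted p = 2.62e-08) and 4.97 (SE 0.37, 31.3-fold higher, adjusted p = 3.61e-09). Its 3 probes moved alike, with differences of 3.57 to 4.89 against luminal progenitors.

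Krt90 was at or near background outside the MaSC-enriched cells. It measured 8.62, 10.19, 9.11, 8.20 and 10.63 there, while only 1 luminal progenitor array and 3 mature luminal arrays lay above background, the highest at 6.47. The differences were 4.40 (SE 0.36, adjusted p = 1.53e-08) and 4.11 (SE 0.34, adjusted p = 1.87e-08), set against groups mostly at background, so that no fold is given. Krt14, Krt16, Krt17 and Krt42 follow each other on chromosome 11 in the RefSeq table, and Krt90, Krt75, Krt6b, Krt6a and Krt5 on chromosome 15: all 4 of the first run were higher in MaSC-enriched cells, while the second run held both directions. With Krt15, Krt19 and Krt9, which stand just before Krt14, the first run would hold both directions too. Of these Krt15 was higher and Krt19 lower, and Krt9 was not above background on any array. Genes in these runs are related copies of each other, and probe sequences were not used here, so signal shared between copies was not tested.

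**Figure D2:**
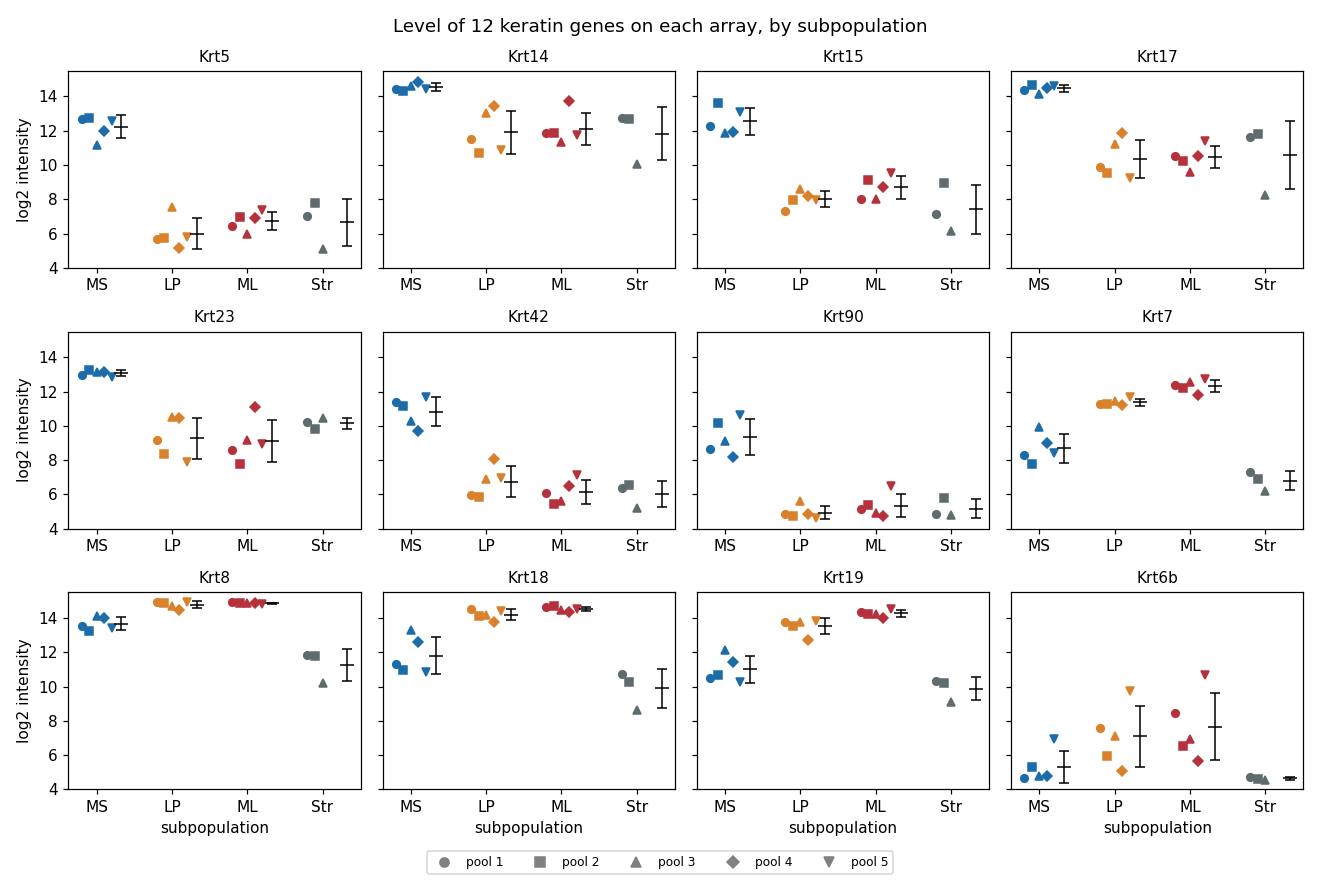
Log2 intensity (vertical axis) of 12 keratins on each array (points, shaped by mouse pool), by subpopulation on the horizontal axis (MS, LP, ML and Str as before). Dashes with bars are the group mean and SD over 5 arrays, or 3 for stroma. The points of MaSC-enriched arrays and luminal arrays do not overlap for Krt5, Krt14, Krt15 and Krt17, nor, in the opposite order, for Krt7, Krt8, Krt18 and Krt19.

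The simple epithelial keratins formed the reverse set, with 4 of 5 lower in MaSC-enriched cells against either luminal subset. Krt18, the type I partner of Krt8, measured 11.34, 10.96, 13.30, 12.60 and 10.86 in MaSC-enriched cells, 14.53, 14.14, 14.19, 13.77 and 14.43 in luminal progenitors and 14.65, 14.69, 14.45, 14.38 and 14.54 in mature luminal cells. The groups did not overlap, and MaSC-enriched replicates 3 and 4, whose luminal progenitor markers were also higher, lay nearest to the luminal arrays. The differences were -2.62 (SE 0.44, 6.16-fold lower, adjusted p = 0.000107) and -2.88 (SE 0.42, 7.38-fold lower, adjusted p = 2.05e-05). Whether the luminal signal on those arrays came from luminal cells in the gate was not tested.

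Krt8 was bright on every epithelial array, with 13.56, 13.24, 14.11, 14.04 and 13.43 in MaSC-enriched cells, 14.92, 14.91, 14.69, 14.45 and 14.92 in luminal progenitors and 14.93, 14.87, 14.89, 14.89 and 14.85 in mature luminal cells. All 10 luminal arrays lay above all 5 MaSC-enriched arrays, with differences of -1.23 (SE 0.28, 2.35-fold lower, adjusted p = 0.00209) and -1.28 (SE 0.27, 2.42-fold lower, adjusted p = 0.000948). The luminal values lay close to the end of the scale, as did those of Krt18 and of Krt19 in mature luminal cells, and neither Krt8 difference was called when the fold-change of 1.5 was put inside the test. A second Krt8 probe was not above background on any array.

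Krt19, the smallest type I keratin, known in luminal and simple epithelia, measured 10.50, 10.70, 12.14, 11.47 and 10.26 in MaSC-enriched cells, 13.79, 13.56, 13.78, 12.73 and 13.83 in luminal progenitors and 14.39, 14.25, 14.24, 14.00 and 14.53 in mature luminal cells. The differences were -2.75 (SE 0.31, 6.72-fold lower, adjusted p = 8.53e-07) and -3.34 (SE 0.29, 10.1-fold lower, adjusted p = 3.12e-08), with no overlap. Krt7, the simple type II keratin of ducts, measured 8.30, 7.75, 9.91, 9.02 and 8.42 in MaSC-enriched cells, 11.26, 11.26, 11.43, 11.19 and 11.70 in luminal progenitors and 12.40, 12.20, 12.54, 11.78 and 12.72 in mature luminal cells. It differed by -2.79 (SE 0.31, 6.93-fold lower, adjusted p = 7.08e-07) and -3.80 (SE 0.29, 13.9-fold lower, adjusted p = 5.55e-09), again without overlap. MaSC-enriched replicate 3 was the highest of its group for both genes. Krt20, a keratin of gut and urothelium, was above background on 1 array of each epithelial subset and did not pass the test between them.

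**Figure D3:**
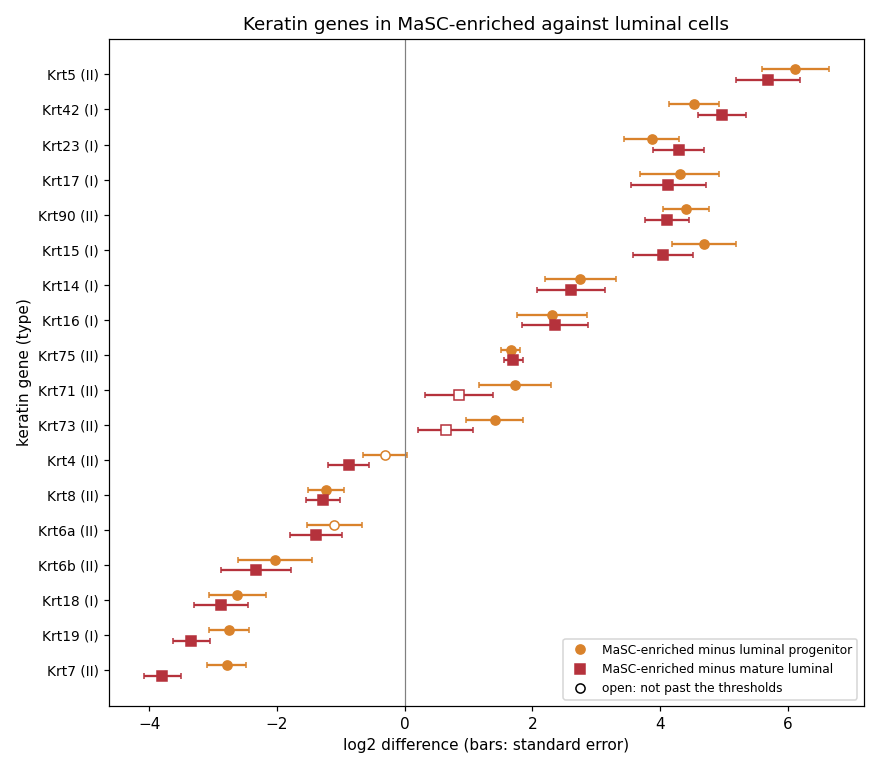
Log2 differences with standard errors (horizontal axis) of the keratins called in at least 1 of the 2 comparisons (rows) between MaSC-enriched cells and each luminal subset. Filled symbols passed both thresholds. Krt5 reaches 6.12 against luminal progenitors and 5.69 against mature luminal cells, and Krt7 reaches -3.80 against mature luminal cells.

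The comparison of luminal progenitors with mature luminal cells asked which keratins mark maturation within the luminal lineage. A single keratin, Krt7, was called among the 43, where 11.1% of all genes were (6.42% higher and 4.67% lower in luminal progenitors). It was lower in luminal progenitors, with a log2 difference of -1.01 (SE 0.28, 2.01-fold lower, adjusted p = 0.00919). Its 5 luminal progenitor arrays, 11.19 to 11.70, lay below its 5 mature luminal arrays, 11.78 to 12.72, and each pool showed the same direction, with differences of -1.14 to -0.58. The values of Krt19 were below those of mature luminal cells in 5 of 5 pools, but its difference, -0.59 (SE 0.28, adjusted p = 0.128), missed the threshold. It was called without stromal replicate 3, at -0.60 (adjusted p = 0.0472), and without MaSC-enriched replicate 3, at -0.59 (adjusted p = 0.0466). Krt31 was called lower in luminal progenitors without luminal progenitor replicate 2 (-0.62), mature luminal replicate 2 (-0.69) or mature luminal replicate 3 (-0.62), Krt73 without mature luminal replicate 2 (-1.30), Krt79 without MaSC-enriched replicate 1 (-0.79), and Krt13 higher without luminal progenitor replicate 1 (0.65). Krt8 and Krt18 were not called between the luminal subsets, with differences of -0.05 (SE 0.26, adjusted p = 0.931) and -0.26 (SE 0.40, adjusted p = 0.711). Among the basal keratins Krt5 differed by -0.43 (SE 0.48, adjusted p = 0.587), and was called lower in luminal progenitors without luminal progenitor replicate 3, at -1.11 (adjusted p = 0.0363), and without replicates 3 and 4, at -1.08 (adjusted p = 0.0455).

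The direction of the main differences held within each hybridization batch. For Krt5 the difference between MaSC-enriched cells and luminal progenitors was 6.12 in batch 1 (pools 1, 2 and 3) and 6.81 in batch 2 (pools 4 and 5), and for Krt15 it was 4.91 and 4.44. For Krt14 it was 2.69 and 2.51, for Krt17 4.30 and 4.02, for Krt23 3.89 and 3.83, for Krt90 4.46 and 4.68 and for Krt75 1.52 and 1.89. The difference was smaller in the second batch for Krt42, with 4.83 and 3.18, for Krt16, with 2.48 and 1.36, and for Krt73, with 1.87 and 0.59. Krt71 had 1.44 and 2.48 and Krt6b -1.85 and -1.55. Among the luminal keratins Krt18 had -2.77 and -2.38, Krt19 -2.79 and -2.41, Krt7 -2.98 and -2.73 and Krt8 -1.36 and -0.95. With 2 arrays a subpopulation, batch 2 alone kept only 2 of the 16 calls against luminal progenitors, Krt5 and Krt15, and 4 of the 16 against mature luminal cells, Krt5, Krt15, Krt7 and Krt19. The Krt7 difference between the luminal subsets was -1.05 and -0.81, the second not called.

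Root sheath and hair keratins were mostly near background. Of these 19 genes 16 were tested and 3 were called at least once, all at low levels, against the 52.6% of all genes. Krt71, a type II keratin of the inner root sheath, measured 6.46, 5.90, 5.96, 7.70 and 6.60 in MaSC-enriched cells, all above background, and 4.57 to 4.74 in luminal progenitors, none above background. In mature luminal cells it measured 4.80, 4.64, 5.70, 4.59 and 9.30, so that 1 array, replicate 5, exceeded all other arrays. Krt71 was at least 2.48-fold higher in MaSC-enriched cells than in luminal progenitors (adjusted p = 0.025), and differed by 0.85 (SE 0.53, adjusted p = 0.275) from mature luminal cells, which was not called. The call against luminal progenitors was lost without MaSC-enriched replicate 1 or 4 (1.69 and 1.54, adjusted p = 0.0659 and 0.0521) or luminal progenitor replicate 5 (1.60, adjusted p = 0.0515). It was lost too without the pool in the model, with the epithelial arrays or batch 2 alone, and with the fold-change of 1.5 inside the test.

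Krt73, another inner root sheath type II keratin, measured 6.05, 7.66, 5.58, 5.46 and 7.30 in MaSC-enriched cells, 4.96, 4.79, 5.02, 5.59 and 6.01 in luminal progenitors and 5.77, 4.92, 5.93, 5.64 and 8.30 in mature luminal cells, with replicate 5 again the highest mature luminal array. It was higher in MaSC-enriched cells than in luminal progenitors by 1.41 (SE 0.45, adjusted p = 0.0224), with overlap between the groups and 2 of 5 luminal progenitor arrays above background. This call was lost without MaSC-enriched replicate 1 or 2 (1.36 and 0.87, adjusted p = 0.0578 and 0.164) or luminal progenitor replicate 1 or 2 (1.40 and 1.29, adjusted p = 0.0533 and 0.0667). The call was lost too without the filter, without the array weights, without the pool in the model or with the fold-change of 1.5 inside the test. A second Krt73 probe differed by 0.72 between MaSC-enriched cells and luminal progenitors and by -0.71 between stroma and MaSC-enriched cells, and neither was called. In stroma Krt71 was below background on all 3 arrays, at least 2.62-fold lower than in MaSC-enriched cells (adjusted p = 0.0215), and Krt73 differed by -1.37 (adjusted p = 0.0199). Without stromal replicate 1 or 2, or MaSC-enriched replicate 1, neither was called (Krt71 -1.65, -1.71 and -1.64; Krt73 -1.36, -1.44 and -1.31), nor was Krt73 without MaSC-enriched replicate 2 (-0.79, adjusted p = 0.198). With the hybridization batch as a fixed block neither stromal call held (-1.43 and -1.20, adjusted p = 0.0882 and 0.066), nor with the BeadChip (-1.43 and -1.17, adjusted p = 0.0872 and 0.0691), and with the pool as a fixed block that of Krt71 was lost (-1.52, adjusted p = 0.0898). The type I inner root sheath keratin Krt28 measured 5.09, 5.97, 5.43, 6.04 and 6.64 in MaSC-enriched cells, 4.96, 4.69, 4.85, 4.79 and 4.70 in luminal progenitors and 5.32, 4.96, 4.81, 4.78 and 9.14 in mature luminal cells. It was called in no comparison.

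The calls of these 3 genes changed with mature luminal replicate 5. Without it Krt71, Krt73 and Krt28 were all called higher in MaSC-enriched cells, by 1.74, 1.42 and 0.91 than in luminal progenitors (adjusted p = 4.71e-05, 0.00612 and 0.00211) and by 1.39, 0.97 and 0.73 than in mature luminal cells (adjusted p = 0.000351, 0.0489 and 0.00888). Krt6a was then also called lower than in luminal progenitors (-1.10, adjusted p = 0.0374), and Krt4 was no longer called against mature luminal cells (-0.62, adjusted p = 0.0747). The keratins called then numbered 18 in both comparisons, against 16 in each with all arrays.

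Mature luminal replicate 5 held the highest value of 17 of the 49 keratins, 10 of them among the 19 root sheath and hair keratins. All 10 were among the 16 tested, and Krt34 was above background on this array alone. The share of the tested is therefore partly set by the filter. The share of all genes with their highest value on this array was not computed. On mature luminal replicate 5 Krt27 stood at 9.49, Krt28 at 9.14, Krt71 at 9.30, Krt35 at 8.20 and Krt33a at 7.82. The highest value of Krt27 on any other array was 6.11, and that of Krt35 was 5.33. Of the 19 root sheath and hair keratins, 12 were above background on this array and 3 to 10 on the others. On this array 51.4% of all probes were above background.

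Other genes of the hair follicle, chosen after these values were seen, were high on the same array and on MaSC-enriched replicate 5. The 5 tested had a mean log2 level of 6.51 on mature luminal replicate 5 and 6.45 on MaSC-enriched replicate 5, with 4 above background on each, and of 4.98 to 5.80 on the other 16 arrays. S100a3, a calcium-binding protein of the hair cuticle, stood at 8.04 on mature luminal replicate 5, at 5.39, 6.82, 5.85, 5.99 and 6.96 on the MaSC-enriched arrays of pools 1 to 5, and at 5.25 or below on all other arrays. Krtap7-1, a protein of the hair matrix, stood at 7.61 there and below background on the other 17 arrays, and the hair regulator Hoxc13 stood at 6.67, with 6.33 on luminal progenitor replicate 5 and 6.27 on MaSC-enriched replicate 5. Padi1, an enzyme that modifies arginines of epidermal and follicle proteins, was higher on MaSC-enriched replicate 5, at 8.39, than on mature luminal replicate 5, at 7.07, and Dsg4, a desmosomal cadherin of the hair, was close on both, at 6.08 and 6.10. Of the 21 keratin-associated protein genes tested, 9 were above background on this array and 2 to 8 on the others. Of all probes 51.4% were above background on this array. These 21 of 42 were tested because they passed background on at least 1 array. For Krtap7-1 this array was the only one, so the count on it is partly set by the filter. The 5 tested epidermis markers had a mean log2 level of 6.53 there and of 5.63 to 6.18 on the other mature luminal arrays, with Ivl at 6.88 against 4.70 to 4.82, and Ivl stood at 6.17 on MaSC-enriched replicate 5. The part of hair follicle cells in these values was not tested.

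**Figure D4:**
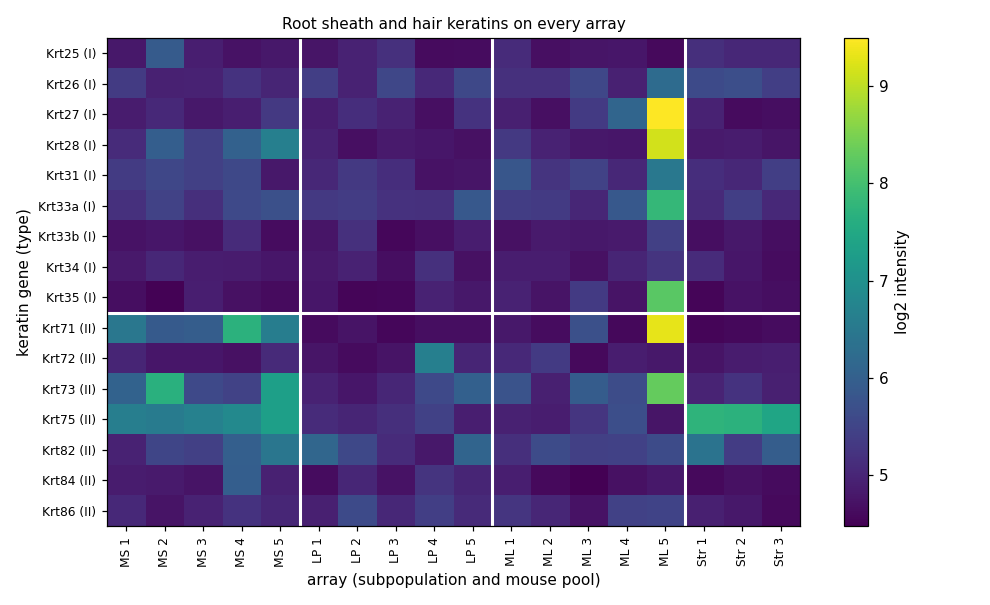
Log2 intensity (colour scale) of the 16 tested root sheath and hair keratins (rows, type I above the line and type II below) on the 18 arrays (columns, by subpopulation and pool). Mature luminal replicate 5 carries Krt27 at 9.49, Krt71 at 9.30 and Krt28 at 9.14, while the MaSC-enriched arrays carry Krt71 at 5.90 to 7.70.

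The stromal fraction served as the outgroup of the epithelial subsets. Against MaSC-enriched cells 15 keratins were lower and 3 higher in stroma, where 16.1% and 14.3% of all genes were (30.4% together). Against luminal progenitors 7 were lower and 3 higher (19.8% and 16.5% of all genes), and against mature luminal cells 8 were lower and 4 higher (21.7% and 16.6%). The share of keratins called in either direction against the luminal subsets, 10 and 12 of 43, was below the 36.3% and 38.3% of all genes.

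The luminal keratins were all lower in stroma. Krt7 measured 7.30, 6.91 and 6.21 on stromal replicates 1 to 3 and differed from mature luminal cells by -5.42 (SE 0.26, 42.8-fold lower, adjusted p = 9.37e-12). Krt8, with 11.85, 11.80 and 10.20, Krt18, with 10.77, 10.30 and 8.63, and Krt19, with 10.32, 10.24 and 9.12, differed from mature luminal cells by -3.39, -4.43 and -4.25. All 3 stromal arrays lay below all 10 luminal arrays for the 4 genes. Against MaSC-enriched cells Krt18 differed by -1.54 (adjusted p = 0.00779), a call lost in batch 1 alone (-1.36, adjusted p = 0.0695). This Krt18 call was lost too with the fold-change of 1.5 inside the test.

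The 3 basal keratins and Krt17 were lower in stroma than in MaSC-enriched cells and were not called against luminal cells. Krt5 measured 7.01, 7.81 and 5.11, Krt14 12.74, 12.68 and 10.06, Krt15 7.11, 8.97 and 6.14 and Krt17 11.61, 11.80 and 8.27. Their differences from MaSC-enriched cells were -5.33, -2.27, -4.90 and -3.40. Krt42, with 6.37, 6.53 and 5.18, and Krt90, with 1 of 3 stromal arrays above background, were also lower, at -4.66 and -4.12. Stromal replicate 3 was lower than the other 2 for 14 of the 20 described keratins, with differences from the mean of the other 2 of -2.30 for Krt5, -2.65 for Krt14 and -3.44 for Krt17, and its 5 epithelial junction genes (Cdh1, Epcam and 3 claudins) averaged 7.12, against 8.59 and 8.34. Without this array Krt5, Krt14 and Krt17 were called higher in stroma than in luminal progenitors, by 1.22, 1.06 and 1.61 (adjusted p = 0.0335, 0.0395 and 0.00177), and Krt17 than in mature luminal cells by 1.42 (adjusted p = 0.003). Without luminal progenitor replicate 3, Krt5 and Krt17 were called higher in stroma than in luminal progenitors as well, by 1.47 and 1.49 (adjusted p = 0.00653 and 0.0433), as was Krt23, by 1.27 (adjusted p = 0.0131). Without stromal replicate 2, Krt15 was called lower than in mature luminal cells, at -1.80 (adjusted p = 0.00195). The part of epithelial cells in the stromal fraction was not tested. The call of Krt19 against MaSC-enriched cells, -0.91, was lost without stromal replicate 3 (-0.64, adjusted p = 0.0584) and without MaSC-enriched replicate 3 or 4 (-0.55 and -0.76, adjusted p = 0.106 and 0.0561), and with the pool as a fixed block (-0.91, adjusted p = 0.0544). Batch 1 alone lost it too (-0.86, adjusted p = 0.0785), as did the fold-change of 1.5 inside the test. Krt16 was below background on all 3 stromal arrays, at least 11.9-fold lower than in MaSC-enriched cells (adjusted p = 2.1e-05), and Krt6b too, at least 5.75-fold lower than in mature luminal cells (adjusted p = 0.000182). Krt6a, below background there as well, was at least 2.15-fold lower than in mature luminal cells (adjusted p = 0.00389). Against mature luminal cells Krt16 passed the threshold by little, with a fitted difference of -1.26 (adjusted p = 0.049), and leaving out 1 array lost this call for 15 of the 18 arrays, with adjusted p up to 0.196, as did the hybridization batch as a fixed block (-0.95, adjusted p = 0.0517).

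Few keratins were highest in stroma. Krt75, a type II keratin of the companion layer of the hair follicle, measured 7.73, 7.69 and 7.42 in stroma, 6.63, 6.56, 6.68, 6.84 and 7.30 in MaSC-enriched cells, 5.09, 4.99, 5.16, 5.45 and 4.90 in luminal progenitors and 4.94, 4.88, 5.25, 5.68 and 4.76 in mature luminal cells. The 3 levels were set apart without overlap, stroma above MaSC-enriched cells by 0.93 (SE 0.15, 1.9-fold higher, adjusted p = 5.66e-05) and MaSC-enriched cells above luminal progenitors by 1.66 (SE 0.15, adjusted p = 7.67e-08), where 2 of the 5 luminal progenitor arrays were above background. This was seen with 1 of its 3 probes: the second differed by 0.17 and 0.03 and the third by -0.07 and 0.02 in the order MaSC-enriched minus luminal progenitor and stromal minus MaSC-enriched, and with the mean of the 3 probes neither stroma above MaSC-enriched cells (0.33) nor MaSC-enriched above mature luminal cells (0.54, against 1.70 with the brightest probe) was called.

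Krt10, the type I keratin of upper epidermis, was above background on all arrays and measured 10.94, 11.00 and 11.21 in stroma, 10.42, 10.40, 9.75, 10.60 and 10.57 in MaSC-enriched cells, 9.63, 10.03, 9.65, 10.09 and 10.18 in luminal progenitors and 9.28, 10.59, 9.57, 10.33 and 9.49 in mature luminal cells. All 3 stromal arrays lay above all epithelial arrays, by 1.19 (SE 0.20, 2.27-fold higher, adjusted p = 9.8e-05) against mature luminal cells. Against MaSC-enriched cells it differed by 0.70 (SE 0.22, 1.63-fold higher, adjusted p = 0.0207), a call lost without MaSC-enriched replicate 2 or 3 (0.66 and 0.58, adjusted p = 0.0753 and 0.0711) or stromal replicate 3 (0.62, adjusted p = 0.0552). Batch 1 alone lost this Krt10 call too (0.75, adjusted p = 0.0706). Its type II partner Krt1 stayed between 5.03 and 5.94 and was called nowhere. Of the 5 tested epidermis markers 2 were higher and 1 lower in stroma than in each epithelial subset. Of all genes 14.3% to 16.6% were higher and 16.1% to 21.7% lower in these comparisons. Krtdap, a protein of differentiating epidermis, measured 10.53, 10.36 and 10.85 in stroma and at most 7.08 elsewhere, and Sbsn was higher than in mature luminal cells by 2.10 (SE 0.24). Lor, the loricrin of the cornified layer, was lower, at -1.71 (SE 0.23), and Ivl was not above background in stroma.

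Some further keratins set stroma apart. Krt20, at low levels, measured 6.08, 5.48 and 6.59 in stroma, above all epithelial arrays, which ran from 4.56 to 5.14, and differed from mature luminal cells by 0.87 (SE 0.16, adjusted p = 0.000318). Krt23, with 10.20, 9.81 and 10.45, was lower than in MaSC-enriched cells, at -2.96 (SE 0.41, 7.77-fold lower, adjusted p = 1.12e-05), and higher than in mature luminal cells by 1.33 (SE 0.36, 2.51-fold higher, adjusted p = 0.00788), a call lost without mature luminal replicate 2 (0.92, adjusted p = 0.091). Krt79, known from the follicle's opening, measured 5.20, 5.38 and 5.31 in stroma, 7.32, 6.63, 6.73, 6.75 and 8.39 in mature luminal cells, 6.61, 5.73, 6.34, 4.88 and 6.74 in luminal progenitors and 5.08, 7.29, 7.29, 5.70 and 7.11 in MaSC-enriched cells. It was lower in stroma than in mature luminal cells, with -1.73 (SE 0.33, 3.32-fold lower, adjusted p = 0.000404). Its calls against MaSC-enriched cells (-1.16, adjusted p = 0.0223) and luminal progenitors (-0.96, adjusted p = 0.049) were each lost when single arrays were left out, 4 arrays for the first and 11 for the second, with adjusted p up to 0.115 and 0.213. Both were also lost with the pool, the hybridization batch or the BeadChip as a fixed block, with adjusted p of 0.0837, 0.0532 and 0.142 for the first and 0.0656, 0.0948 and 0.0721 for the second.

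The anchors of keratin filaments differed between the same subsets. Of 15 partner genes of desmosomes, hemidesmosomes and filament linkers, 13 were tested. Of these 5 were higher and 4 lower in MaSC-enriched cells than in luminal progenitors, where 11.3% and 10.9% of all genes were, and 4 and 4 against mature luminal cells (13.7% and 13.8%). Col17a1, the collagen of hemidesmosomes, was higher by 5.08 (SE 0.57) and 5.62 (SE 0.54), and Pkp1, a desmosomal plakophilin, by 2.51 (SE 0.27) and 1.88 (SE 0.25). In contrast the plakophilin Pkp2, named after its values were seen, was lower, with -3.45 (SE 0.36) and -3.27 (SE 0.34), and so was the cross-linker Evpl, with -2.61 (SE 0.29) and -3.39 (SE 0.28), all with groups that did not overlap. Between luminal progenitors and mature luminal cells Evpl alone of the 13 was called, at -0.78, where 11.1% of all genes were. In stroma 9 of the 13 were lower and 1 higher than in MaSC-enriched cells (16.1% and 14.3% of all genes), with Pkp3, another plakophilin, at -3.91 (SE 0.26) and Itga6, an integrin of hemidesmosomes, at -3.88 (SE 0.29).

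Among the intermediate filament genes of other families, every difference called between MaSC-enriched and luminal cells was in the direction of MaSC-enriched cells. Of 9 tested, 3 were higher than in luminal progenitors and 4 than in mature luminal cells, against 11.3% and 13.7% of all genes, and none was lower. Synm, the synemin of muscle-type filaments, was higher by 4.34 (SE 0.41) and 3.93 (SE 0.39), Vim by 2.56 (SE 0.33) and 3.41 (SE 0.32) and Des by 2.46 (SE 0.52) and 1.82 (SE 0.49). Nes was higher than in mature luminal cells by 2.19 (SE 0.37) and not called against luminal progenitors. In stroma Vim, the vimentin of mesenchymal cells, was higher than in mature luminal cells by 5.29 (SE 0.28).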

How the data were processed

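Sorted mammary subpopulations of 5 mouse pools were measured on BeadChips of the Illumina MouseWG-6 v2.0 type. The authors deposited log2 intensities, corrected for background by normexp and quantile-normalized, both with the control probes (BeadStudio and limma, versions not given in the sources used here), and these log2 values were used unchanged. A second table of non-normalized intensities, whose 36 array columns could not be matched to samples, was not used here. Arrays were grouped by their labels, and replicates were paired by the mouse pool that the labels name.

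A probe was kept if it exceeded, on at least 1 array, the background of that array, set at the median plus the upper 1% normal point of 1506 olfactory and vomeronasal receptor probes. This kept 35585 of 45281 probes (78.6%), among them 660 receptor probes. Of all probes 34885 had 1 gene symbol, 18 several and 10378 none, and the last 2 kinds were not named. A gene was given by its brightest kept probe, which left 16319 genes. All 18 arrays entered 1 limma fit (limma 3.58.1, statmod 1.5.0, R 4.3.3) with quality weights for the arrays, treating the pool as a random factor (correlation 0.263), and p-values were adjusted by the Benjamini-Hochberg method over all kept probes and 6 comparisons. Genes with an adjusted p below 0.05 and a fold-change above 1.5 were called. Where a gene was not above background on any array of a subpopulation, the fold is a lower bound from plain group means. For this bound the background level of each such array took the place of its value. No fold is given where the fitted fold was smaller than that bound or where only a minority of the arrays were above background. The model was tested on simulated data.

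Every keratin was accounted for, and those called at least once and above background on every array of a subpopulation are described by array. The keratins, the usual site of each, the filament partners, the other intermediate filament genes and the markers (basal, luminal progenitor, mature luminal, fibroblast, endothelial, blood, epidermis, adipocyte) were chosen with earlier results of these data known, and the epithelial junction and hair follicle genes after their values were seen. From a list at most 5 called genes with the largest changes were named. Promoter letters came from RefSeq (GRCm38.p6). Alternatives covered the filter, weights, block, batch, adjustment, fold-change rule, probe choice and each array left out. The number of arrays limits the precision.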

Additional observations from a re-analysis of the deposited data

Results flagged for a closer look

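Among the groups of 5 arrays, 12 of 75 tested held an array whose gap to the nearest other was large for the range of its group, while chance flags about 1 in 20 independent groups. The 25 genes were the 20 described keratins and 5 others picked with their values known (Krt6a, Krt27, Krt28, Krt33a and Krt35), and the groups share arrays, so the count is not read against chance. Mature luminal replicate 5 gave 4 of them as the highest of its group: Krt28 at 9.14 (next 5.32), Krt71 at 9.30 (next 5.70), Krt35 at 8.20 (next 5.33) and Krt4 at 7.92 (next 5.95). Luminal progenitor replicate 3 was the highest of its group for Krt5, at 7.56 (next 5.77), and for Krt90, at 5.59 (next 4.87). Mature luminal replicate 4 was the highest for Krt14, at 13.76 (next 11.89). Luminal progenitor replicate 4 was the lowest for Krt19, at 12.73 (next 13.56). MaSC-enriched replicate 5 was the highest for Krt6b, at 6.94 (next 5.32), and the lowest for Krt20, at 4.56 (next 5.04). MaSC-enriched replicate 3 was the lowest for Krt10, at 9.75 (next 10.40). Luminal progenitor replicate 5 was the highest for Krt33a, at 5.86 (next 5.37). The causes were not tested.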

How the results depend on the processing

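No called difference of a described keratin changed its sign under any alternative run. Krt6a, called but not among the described keratins, was not followed through every alternative. Of the 70 called differences of described keratins 31 kept their call under every alternative run for them, and 59 kept it whichever single array was left out. The 31 were 6 of the 32 between epithelial subsets and 25 of the 38 with stroma. Differences with stroma could not be run with batch 2 alone or with the epithelial arrays alone, so the 2 shares are not alike. Between epithelial subsets 18 of 32 lost their call only with batch 2 alone, which has 2 arrays a subpopulation. With batch 1 alone 5 of the 70 lost their call, all of them with stroma. These were Krt10, Krt18 and Krt19 against MaSC-enriched cells, Krt79 against luminal progenitors and Krt16 against mature luminal cells. With batch 2 alone the keratins called numbered 2 (MaSC-enriched against luminal progenitor), 4 (MaSC-enriched against mature luminal) and 0 (luminal progenitor against mature luminal), and all genes called 178, 563 and 11. With the fold-change of 1.5 inside the test, 0 keratins were called between the luminal subsets and 10 between stroma and MaSC-enriched cells, and all genes called numbered 1681, 2236 and 457 in the epithelial comparisons in the same order and 2492, 3399 and 3811 for stroma against MaSC-enriched, luminal progenitor and mature luminal cells. Between the luminal subsets 3 keratins were called with the mouse pool as a fixed replicate block (Krt4, Krt7 and Krt31) and 2 without luminal progenitor replicates 3 and 4. Without a replicate block the keratins called numbered 13, 15, 1, 17, 8 and 11, and with the fixed replicate block 17, 16, 3, 15, 10 and 12, in the order of comparisons above, against 16, 16, 1, 18, 10 and 12 as reported. Leaving out 1 array gave 14 to 18, 14 to 18, 1 to 3, 15 to 19, 8 to 12 and 11 to 14 keratins, and 27 differences of 18 keratins that were not called gained a call when 1 array was left out. The cause of these changes was not tested, apart from the fewer arrays of the batch fits. Depth is not defined for arrays, and signal near background limits the hair keratins, Krt4, Krt20 and Krt79.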
